A study of Mus musculus with 48 samples.

Results

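The RNA that synaptosomes of the mouse cortex hold in ribosome pellets was compared between 18 and 5 months of age. The comparison uses 8 of the 48 libraries of the series, chosen by their labels: synaptosome pellets below a sucrose cushion (SC_SYN) from 4 mice of 18 months and 4 mice of 5 months. All mice were male wild-type C57BL/6JRj animals with no treatment, and the labels name no other allele. The sample labels give the younger group as 6 months, whereas the tissue protocol gives 5 months, the age used here. That protocol gives the older group as 18 or 19 months, and the labels as 18 months. Lysis and cushion buffers contained cycloheximide, which holds ribosomes on their mRNAs. The remaining libraries come from 3-week-old mice and, at each age, from pellets of total homogenate (SC_TH) and from RNA taken before the cushion (input_SYN and input_TH). Values are numbers of reads per gene, of which 14240 of 48526 genes held enough reads to be tested in SC_SYN. Levels below are counts per 1000000 reads of a library after TMM scaling (CPM), unless said to be of all reads. Differences are log2 fold changes of 18 against 5 months, with the standard error (SE) of the fitted model. This SE takes its spread from the mice of all 3 ages. A pair of values joined by ± without further name is the log2 fold change in SC_SYN with its SE.

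Synaptosomes are pinched-off nerve endings with attached postsynaptic membrane that reseal when brain tissue is homogenized. Neurons carry mRNAs and ribosomes into axons and dendrites and translate them there, close to the synapse. Centrifugation through dense sucrose pellets ribosomes with the mRNAs they hold, so the RNA of such a pellet is a measure of which transcripts were ribosome-associated. Astrocyte processes and myelin fragments are known to travel with synaptosomes, and a heavy RNA-protein particle other than a ribosome can pellet as well.

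The 4 libraries of 5-month-old mice held between 8328535 and 14557582 reads on genes. At 18 months depth was uneven, with 6268207 reads in the library of mouse 195, 18590040 in that of mouse 196, 15306804 in that of mouse 197 and 5341263 in that of mouse 198. Replicate libraries differed by 5.33 to 32.2 times more than counting error alone gives, so none was a second deposit of another. The first principal component of the 8 libraries took 46.5% of the variance and set the libraries of mice 195 (38.8) and 198 (44.3), both of 18 months, apart from the other 6 (-37.5 to -2.80). These are also the 2 shallowest libraries, and values without them are given with the groups below. Counting ignored strand, which leaves the level of any gene that overlaps, runs antisense to or nearly copies another one uncertain.

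Several neuronal markers were abundant in the pellets. All CPM of this paragraph are of all reads of a library, without TMM scaling. At 5 months the median of Syt1, the calcium sensor of synaptic vesicles, was 2870 CPM of all reads in SC_SYN and 1734 in SC_TH. The median of Camk2a, a kinase mRNA that dendrites hold, was 5871 against 3265 CPM, and that of Slc17a7, the vesicular glutamate transporter, was 2668 against 1429 CPM. Other neuronal mRNAs were lower than in homogenate pellets, with Snap25 at 764 against 2205 CPM and Nrgn at 1075 against 2166 CPM. All 24 neuron markers summed to 17982 to 20770 CPM in SC_SYN at 5 months, below the 20829 to 21766 CPM of SC_TH. The hemoglobin gene Hbb-bs had a median of 10.7 against 133 CPM, and the 7 erythrocyte markers summed to 52.4 to 74.9 CPM against 325 to 506 CPM. Endothelial and mural markers did not behave alike. Cldn5, of endothelial tight junctions, had a median of 0.662 CPM against 15.4 in SC_TH, whereas Cspg4, of pericytes and oligodendrocyte precursors, had 102 against 48.6 CPM, and all 29 summed to 699 to 790 CPM against 657 to 909 CPM. The nuclear RNA Meg3 had 144 CPM against 2523 CPM. Glial transcripts were not depleted. The summed level of 28 astrocyte markers was 34898 to 39679 CPM at 5 months and 35759 to 41835 CPM at 18 months, against 17053 to 18579 CPM in SC_TH at 5 months, and the 23 microglia markers summed to 1317 to 1635 CPM at 5 months and 1061 to 1534 CPM at 18 months. At 5 months the 30 myelin and mature oligodendrocyte markers summed to 4386 to 5063 CPM, against 3779 to 4365 CPM in SC_TH. Markers of precursors and newly formed oligodendrocytes summed to 1891 to 2107 CPM. No marker of these lists was at 0 in all 8 libraries. The pellets thus held RNA of neurons, astrocytes, oligodendrocytes and microglia. In such bulk samples fewer cells or particles of a type cannot be told apart from less RNA in each.

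Between 5 and 18 months, 2 of 14240 genes (0.0140%) passed an adjusted p of 0.05 by Benjamini-Hochberg adjustment of the quasi-likelihood p of edgeR. Tsc22d3, which encodes the glucocorticoid-induced leucine zipper protein (X, 140539528 to 140600659 of GRCm38), had 76.7, 73.9, 63.6 and 73.5 CPM in the 4 libraries of 5 months and 34.9, 39.5, 33 and 38.9 CPM in the 4 of 18 months. The groups did not overlap, and the range within each age was narrow beside the gap between them. Tsc22d3 fell by 0.98 on the log2 scale (SE 0.12, adjusted p = 0.00873, edgeR), on a mean of 765 and 417 reads. At 3 weeks it stood at 41.6 ± 4.8 CPM (SD, n = 4), so 5 months was the highest of the 3 ages.

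AC149090.1, a protein-coding gene model on an unplaced scaffold of the assembly, had 35.8, 31.4, 71.7 and 48.1 CPM at 5 months and 147, 207, 195 and 113 CPM at 18 months. All libraries of 18 months were above all of 5 months, and the gene rose by 1.82 ± 0.25 (SE) on the log2 scale (adjusted p = 0.015, edgeR). At 3 weeks its level was 23.2 ± 4.05 CPM, the lowest of the 3 ages. Without the libraries of mice 195 and 198, AC149090.1 kept an adjusted p under 0.05 (0.00688, edgeR) and Tsc22d3 did not (log2 fold change -0.99, adjusted p = 0.110, edgeR).

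An unadjusted p under 0.05 was reached by 2474 of the 14240 genes (17.4%), of which 1302 were higher (9.14% of genes tested) and 1172 lower (8.23%) at 18 months. The 4 libraries of 18 months lay wholly above the 4 of 5 months for 860 genes (6.04%) and wholly below for 884 (6.21%). DESeq2, run on the same counts, gave 322 genes (2.87%), 139 higher (1.24% of 11202 genes with an adjusted p) and 183 lower genes (1.63%) at an adjusted p under 0.05. Below, a gene without an adjusted p under 0.05 in edgeR is described by its values, as higher or lower, and the percentages just given are the background of the counts of the same fit. Once each library was corrected for its dependence on GC content and exonic length, 1061 genes were higher (7.45%) and 1054 lower (7.40%) at an unadjusted p under 0.05, and in the fit without mice 195 and 198 it was 707 (4.96%) and 877 (6.16%). Counts given for these fits below are to be read against those shares. The gene lists were chosen with earlier results of these data known. Counts above these shares therefore describe the lists and are no independent test of them. The scatter of fold changes and p-values shows where the genes named below lie among all genes.

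**Figure D1:**
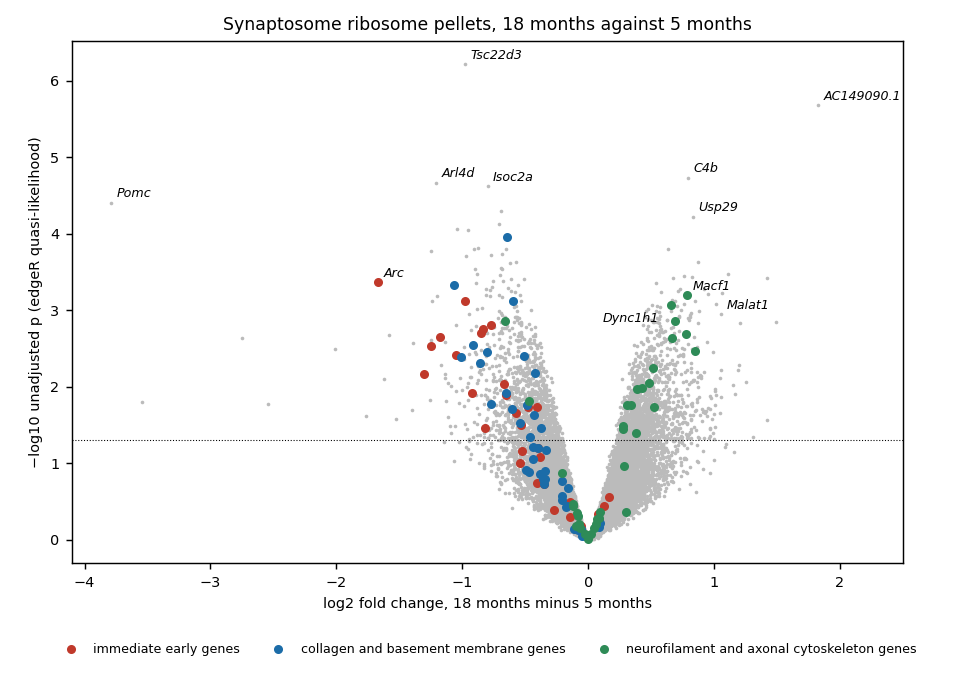
Log2 fold change of 18 against 5 months (x axis) and significance in edgeR on a -log10 scale of the unadjusted p (y axis) for 14240 genes in synaptosome ribosome pellets, with a dotted line at the 0.05 level. Tsc22d3 and AC149090.1 lie highest, immediate early genes (red) and collagen genes (blue) lie mostly to the left, and cytoskeleton genes (green) mostly to the right.

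The genes with the smallest p among those lower at 18 months included a small GTPase, secreted factors and receptors. Arl4d, a small GTPase of the ARF-like family, had 18.4, 15.4, 12.7 and 14 CPM at 5 months and 4.12, 6.75, 7.28 and 7.67 CPM at 18 months. Its groups did not overlap, with a log2 fold change of -1.21 ± 0.20 (SE; adjusted p = 0.0685, edgeR). Isoc2a, an isochorismatase-domain protein, had 47.7, 37.4, 33.9 and 35.6 CPM and then 21.3, 21.9, 21.2 and 24.5 CPM, a log2 fold change of -0.80 ± 0.13 (adjusted p = 0.0685, edgeR). The 4 older libraries lay close together, and at 3 weeks the level was 21.4 ± 2.28 CPM, within the range of 18 months. Vegfa, the main angiogenic growth factor, had 60.8, 69.4, 51.8 and 52.5 CPM and then 33.5, 37.3, 38.8 and 33.1 CPM, a log2 fold change of -0.71 ± 0.13 (adjusted p = 0.117, edgeR). Pdgfb, which encodes a chain of platelet-derived growth factor, had 36.7, 29.6, 33.2 and 32.2 CPM and then 13.5, 22.4, 15.3 and 15.9 CPM (-0.95 ± 0.18, adjusted p = 0.117, edgeR). In both growth factor genes the groups were separate.

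Of membrane proteins and receptors, Islr2, a leucine-rich-repeat protein of growing axons, had 329.7, 307, 275 and 328 CPM at 5 months and 168, 226, 170.3 and 203 CPM at 18 months. Fzd2, a Wnt receptor, had 37.9, 27.6, 30.6 and 28.4 CPM and then 13, 18.4, 16.5 and 19.9 CPM. Efnb1, a membrane-bound ephrin ligand, had 51, 37.9, 36 and 40.4 CPM and then 15.7, 26.3, 20.1 and 25.7 CPM. None of these 3 genes overlapped between ages, and their log2 fold changes were -0.69, -0.87 and -0.91. Ppp1r3g, a subunit that brings protein phosphatase 1 to glycogen, had a log2 fold change of -1.04 ± 0.20, Col19a1, a collagen made by neurons, of -0.65 ± 0.12, and Olfml2b, a secreted olfactomedin-like protein, of -0.66 ± 0.13. Pomc, the precursor of corticotropin and beta-endorphin, had the lowest fold change of all genes tested: 8.76, 1.96, 12.3 and 1.74 CPM at 5 months, in libraries that differed widely among themselves, and 0.634, 0.432, 0.262 and 0.548 CPM at 18 months. Its difference rests on a mean of 59.5 against 4.75 reads (log2 fold change -3.79 ± 0.66, adjusted p = 0.0933, edgeR), and 3 weeks was as low as 18 months (0.506 ± 0.191 CPM). Exonic GC content was 55.7 to 60.0% for Arl4d, Pdgfb, Islr2, Fzd2, Efnb1, Ppp1r3g and Pomc. That places them among the genes of highest GC content tested (55.6 to 75.5%). It was 47.3 to 53.7% for Isoc2a, Vegfa, Col19a1 and Olfml2b. Fold changes by GC content are given below.

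Among genes that were higher at 18 months, complement component C4 came after AC149090.1. C4b had 97.2, 76.7, 68.7 and 71.4 CPM at 5 months and 130.4, 122, 141 and 152 CPM at 18 months. The ages did not overlap, and the log2 fold change was 0.80 ± 0.13 (adjusted p = 0.0685, edgeR), just over the threshold. It stood at 28.9 ± 2.96 CPM at 3 weeks, so its level was higher at each later age. The near-identical copy C4a, whose reads the counting can mix with those of C4b, had 15.4, 10.4, 12 and 12.3 CPM and then 20.1, 16.5, 21.9 and 26.8 CPM (0.76 ± 0.17, adjusted p = 0.155, edgeR). When the trend of each library on GC content and exonic length was taken out, C4b had an adjusted p of 0.0146 (edgeR). Its log2 fold change without mice 195 and 198 was 0.74, with an adjusted p of 0.310 (edgeR).

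Usp29, a ubiquitin peptidase from an imprinted gene cluster, had 8.01, 12.8, 11.1 and 11.1 CPM at 5 months and 18.6, 19.8, 19.5 and 18.8 CPM at 18 months, a log2 fold change of 0.83 ± 0.15 (adjusted p = 0.106, edgeR). The 4 libraries of 18 months lay close together and above all of 5 months. Gad2, which makes GABA from glutamate at inhibitory terminals, had 53.3, 56.8, 56.2 and 71 CPM and then 95, 84.7, 80.7 and 85.1 CPM, a log2 fold change of 0.54 ± 0.12 (adjusted p = 0.155, edgeR). Ppp1r9a, which encodes the actin-binding spine protein neurabin, had 197, 266, 322 and 274 CPM and then 675, 451, 464 and 413 CPM (0.92 ± 0.21, adjusted p = 0.155, edgeR), with the library of mouse 195 highest. In both synaptic genes the ages were separate. Scaffold and RNA-binding proteins followed, with log2 fold changes of 0.63 ± 0.13 for Iqgap2, 0.82 ± 0.18 for Lmo7, 0.87 ± 0.18 for Rbms3 and 0.68 ± 0.15 for Cnot2, the last a subunit of the deadenylase that shortens poly(A) tails. The chromatin genes Kdm6a, a histone H3 lysine 27 demethylase, and Bptf, a subunit of a nucleosome remodeller, had log2 fold changes of 0.71 ± 0.16 and 0.58 ± 0.13, and Nexmif, a neuronal gene linked to intellectual disability, had 0.73 ± 0.17. Exonic GC content was 41.1 to 44.1% for Usp29, Gad2, Rbms3, Cnot2, Kdm6a and Nexmif. That places them among the genes of lowest GC content tested (27.5 to 44.1%). It was 45.6 to 49.9% for Ppp1r9a, Iqgap2, Lmo7 and Bptf. The plot of CPM in each library shows the spread of the libraries at 5 and 18 months beside the 3-week libraries.

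**Figure D2:**
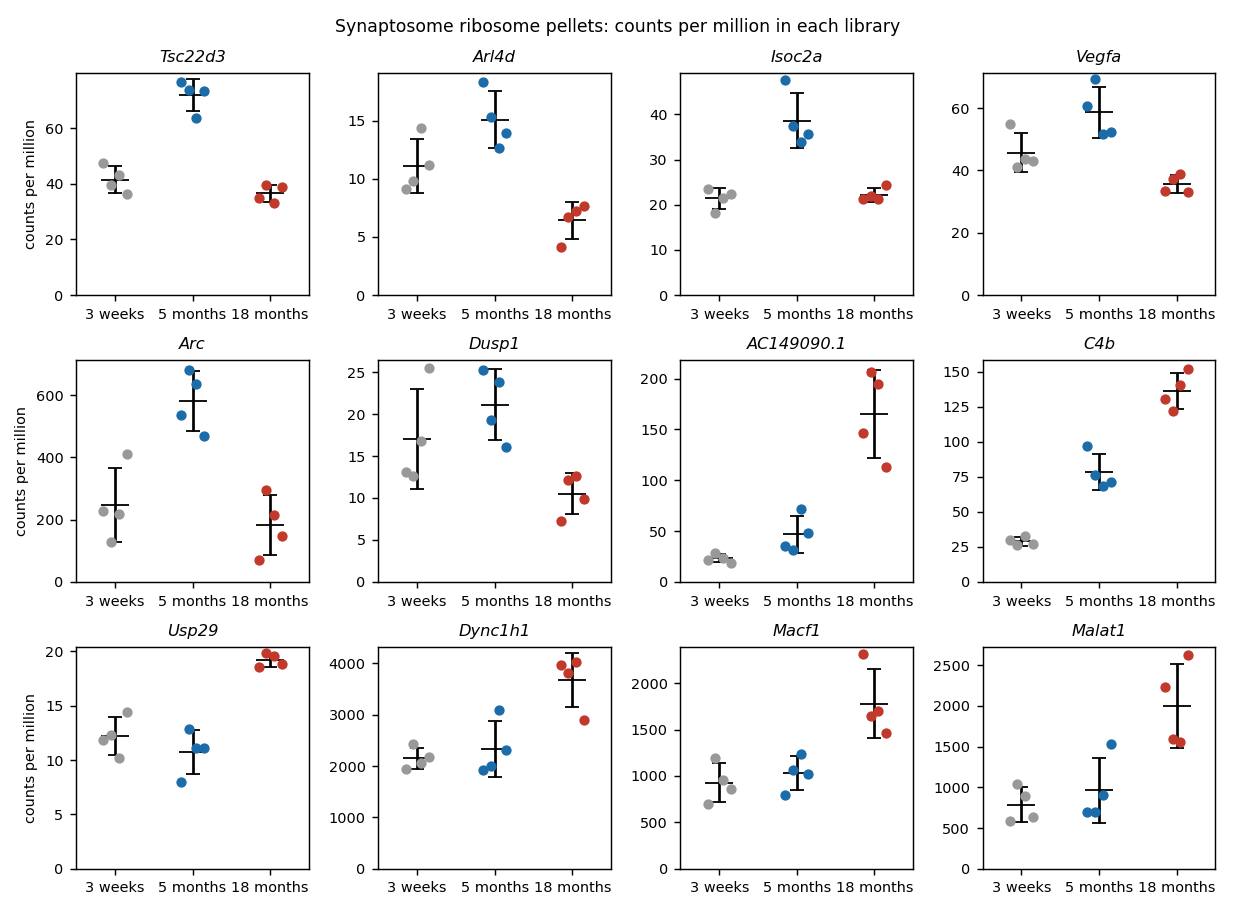
CPM (y axis, linear from 0) of 12 genes in each synaptosome pellet library at 3 weeks (grey), 5 months (blue) and 18 months (red), with the mean and SD of 4 mice. Each gene shown has 4 libraries of 18 months that lie wholly above or wholly below the 4 of 5 months, except Dync1h1, where the lowest library of 18 months (2890 CPM) lies under the highest of 5 months (3101 CPM).

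Immediate early genes, which neurons transcribe within minutes of activity, were mostly lower. Of 36 genes listed, 33 were tested and Klf4, Atf3 and Maff had too few reads. An unadjusted p under 0.05 was reached by 17 that were lower and by none that was higher, 12 had separate groups, and the median log2 fold change of the 33 was -0.52, against 0.01 for all genes tested. Arc, an activity-induced mRNA that is carried into dendrites and translated there, had 536, 683, 637 and 470.3 CPM at 5 months and 69.3, 297, 215 and 149 CPM at 18 months. The groups did not overlap, although the 18-month libraries differed widely among themselves, with mouse 195 lowest, and the log2 fold change was -1.67 ± 0.37 (adjusted p = 0.155, edgeR; 0.00314, DESeq2). The 3-week level was 246 ± 119 CPM.

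Transcription factors of the group followed the same direction. Fos, a subunit of the AP-1 factor, had 25, 19.9, 21.2 and 20.5 CPM and then 3.01, 14.3, 10.0 and 9.31 CPM (-1.18 ± 0.32, adjusted p = 0.166, edgeR). Junb, its partner, had 68.4, 48.9, 61.4 and 41.2 CPM and then 11.6, 29.7, 32.2 and 16.6 CPM (-1.25 ± 0.35, adjusted p = 0.168, edgeR). Nr4a1, an orphan nuclear receptor, had 54.4, 59.5, 63.9 and 45 CPM and then 14.3, 36.1, 32.7 and 22.3 CPM (-1.05 ± 0.31, adjusted p = 0.179, edgeR). The groups were separate in all 3, and mouse 195 was lowest each time. Egr2 was lower as well (-1.30 ± 0.42), as were the phosphatase genes Dusp1 (-0.98 ± 0.23) and Dusp5 (-0.92 ± 0.32). Members that are often used as activity markers did not all follow. Egr1 had 126, 189.7, 186 and 165 CPM at 5 months and 66.6, 181, 124 and 83.8 CPM at 18 months, which overlapped (-0.54 ± 0.31, adjusted p = 0.372, edgeR). Npas4 overlapped as well (-0.41 ± 0.29), and Bdnf, the growth factor gene, had 41.3, 45.2, 42.5 and 47.4 CPM and then 39.3, 42.5, 41.2 and 51.7 CPM (-0.02 ± 0.12). DESeq2 called 8 of the 30 members it tested, all lower. With the trend on GC content and length removed, 15 members were lower at an unadjusted p under 0.05 and the median was -0.34. The same without mice 195 and 198 was 10 members and -0.32.

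Many immediate early genes are switched on by the factor CREB, which binds the palindrome TGACGTCA, and the promoter windows of the list were searched for these 8 letters, which read alike on both strands. A window of 300 bases, from 250 before to 50 after the start of each RefSeq gene of GRCm38.p6, was at hand for 25 of the listed genes and 27025 genes in all. The letters stood in 549 windows of all genes (2.03%) and in 3 of the list. These are shown with 40 bases on each side, in the direction of transcription, with the palindrome in capitals, as they are the members with the full site: Btg2 at chr1:134079274-134079361 on the minus strand, Dusp1 at chr17:26508568-26508655 on the minus strand and Plk2 at chr13:110394942-110395029 on the plus strand. The palindrome began 166, 143 and 62 bases before the start.
Btg2: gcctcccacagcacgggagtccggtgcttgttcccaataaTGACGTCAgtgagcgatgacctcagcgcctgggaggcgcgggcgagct
Dusp1: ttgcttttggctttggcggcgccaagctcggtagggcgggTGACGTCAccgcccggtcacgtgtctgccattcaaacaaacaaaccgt
Plk2: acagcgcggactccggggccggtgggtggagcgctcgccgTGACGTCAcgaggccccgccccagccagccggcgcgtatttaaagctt
Of the 3 genes, Dusp1 had separate groups, with 25.3, 19.3, 23.9 and 16.1 CPM at 5 months and 7.3, 12.1, 12.7 and 9.86 CPM at 18 months (adjusted p = 0.16, edgeR). Btg2, an antiproliferative gene, had 8.13, 5.68, 9.28 and 6.2 CPM and then 4.92, 4.7, 6.3 and 7.12 CPM (-0.36 ± 0.26). Plk2, a kinase of synaptic scaling, had 42.5, 58.6, 62.1 and 62 CPM and then 56.8, 74.7, 67.3 and 53.3 CPM (0.17 ± 0.15). The latter pair overlapped between ages.

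Glucocorticoid-responsive genes were the group of Tsc22d3. Glucocorticoids enter cells, and their receptor then switches on a set of target genes that differs between tissues. Of 31 listed, 29 were tested. At an unadjusted p under 0.05, 11 were lower and 1 higher, 11 had groups wholly lower and 1 wholly higher at 18 months, and the median log2 fold change was -0.35. Ddit4, an inhibitor of the growth kinase mTORC1, had 67.2, 49.5, 32.7 and 44.6 CPM at 5 months and 25.9, 25.1, 20.3 and 34.3 CPM at 18 months (-0.89 ± 0.20, adjusted p = 0.155, edgeR). The ages overlapped, as the lowest library of 5 months (32.7 CPM) lay under the highest of 18 months (34.3 CPM). Per1, a clock gene with a glucocorticoid response, had 118, 101, 129 and 93.1 CPM and then 49.3, 89.6, 68 and 49.3 CPM (-0.77 ± 0.20, adjusted p = 0.16, edgeR). Sgk1, a kinase induced by corticosteroids, had 26, 28.4, 28.4 and 23.5 CPM and then 13.5, 21.3, 21.6 and 11.7 CPM (-0.61 ± 0.19, adjusted p = 0.191, edgeR). Pdk4, which inhibits pyruvate dehydrogenase, had -0.55 ± 0.15, and Nfkbia, an inhibitor of NF-kappaB, had -0.69 ± 0.20. The member in the opposite direction was Nr3c1, the glucocorticoid receptor itself, with 45.3, 61.1, 49.7 and 58 CPM and then 73, 72, 65.4 and 77.6 CPM (0.42 ± 0.12, adjusted p = 0.174, edgeR; 0.0425, DESeq2). Not every known target followed, as Fkbp5, a co-chaperone of the receptor, had 31, 34.9, 29.1 and 27.7 CPM and then 32.8, 24.3, 19.3 and 33.4 CPM (-0.18 ± 0.19). With the GC and length trend removed the median was -0.22, and without mice 195 and 198 it was -0.31, with 11 members lower. Dusp1 and Per1 stand in this list and among the immediate early genes.

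Circadian clock genes had no common direction. Of 23 tested, 3 were higher and 3 lower at an unadjusted p under 0.05, with a median of 0.01. Clock, a core activator, had a log2 fold change of 0.58 ± 0.20 and Dbp, an output gene of the clock, of -0.67 ± 0.28. The hour of dissection was not given in the sources used here.

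Collagen and basement membrane genes, which build the extracellular matrix, were mostly lower. Of 46 listed, 42 were tested, 17 were lower at an unadjusted p under 0.05 and none higher, 13 had separate groups, and the median log2 fold change was -0.39. Fold changes were below 0 for 40 of the 42. Col11a2, a fibrillar collagen chain, had 63.4, 29.2, 45.4 and 31.9 CPM at 5 months and 18.1, 21.1, 25.6 and 15 CPM at 18 months (-1.07 ± 0.24, adjusted p = 0.155, edgeR). P4ha1, the prolyl hydroxylase that collagen needs to fold, had 115, 109.7, 94.7 and 108 CPM and then 50.3, 85.3, 69.1 and 77.8 CPM (-0.60 ± 0.14, adjusted p = 0.16, edgeR). Agrn, a proteoglycan that organizes synapses at muscle, had 540.4, 364, 386 and 399 CPM and then 259, 335, 324 and 269.7 CPM (-0.51 ± 0.15, adjusted p = 0.179, edgeR). All 3 were separate between ages. For the fibroblast collagen Col1a2, the library of mouse 191 (101 CPM) stood well above the other 3 of 5 months (42.9 to 52.2 CPM), which in turn lay above the highest of 18 months (38.0 CPM). Laminin Lamc1 had -0.42 ± 0.13. With the GC and length trend removed, 17 members were lower and the median was -0.34. Without mice 195 and 198 it was 11 members and -0.35.

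Genes for the synthesis and uptake of cholesterol, which synapses and myelin need as a membrane lipid, were lower too. Of 34 tested, 13 were lower and none higher at an unadjusted p under 0.05, 9 had separate groups, and the median was -0.30. Mvk, mevalonate kinase, had 23.1, 20.7, 23.3 and 20.4 CPM at 5 months and 15.2, 16.9, 15 and 15.9 CPM at 18 months (-0.47 ± 0.13, adjusted p = 0.167, edgeR). Cyp46a1, the neuronal enzyme that turns cholesterol into an exportable form, had 596, 485, 492 and 529 CPM and then 382, 406, 369 and 479.7 CPM (-0.36 ± 0.12, adjusted p = 0.199, edgeR). DESeq2 called 1 of the 34. With the GC and length trend removed, 8 members were lower and the median was -0.21, and without mice 195 and 198 it was 8 and -0.17.

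Markers of glia differed by cell type, and astrocyte markers were mostly lower. Of 28 astrocyte markers, 8 were lower and 1 higher at an unadjusted p under 0.05, with a median of -0.20. Fold changes were below 0 for 23 of the 28, and 7 had groups wholly lower at 18 months. Mfge8, a secreted bridging protein for phagocytosis, had 436, 317, 305 and 282 CPM at 5 months and 157, 252, 249 and 182 CPM at 18 months (-0.67 ± 0.20). Aldh1l1, a folate enzyme, had 277, 195, 172 and 226 CPM and then 150.0, 139, 137 and 189.5 CPM (-0.50 ± 0.15). The higher member was Sparcl1, a secreted synaptogenic protein, with 3453, 5115, 3876 and 5334 CPM and then 6210, 5303, 5002 and 7974 CPM (0.46 ± 0.21), and the summed level of the list overlapped between ages. Leaving out mice 195 and 198, 5 astrocyte markers were lower and none higher, with a median of -0.23, and with the GC and length trend removed 7 were lower and 1 higher. Of 31 markers of oligodendrocyte precursors and newly formed oligodendrocytes, 6 were lower and none higher. Gpr17, a receptor of cells about to myelinate, had 65.6, 62.3, 67.3 and 69.6 CPM and then 33.6, 53.2, 47.2 and 41.1 CPM, after 193 ± 26.4 CPM at 3 weeks (-0.59 ± 0.14, adjusted p = 0.16, edgeR). Markers of mature oligodendrocytes split, with 4 higher and 6 lower of 30 (1 and 1 without mice 195 and 198). Among 18 endothelial and mural markers tested of 29, 1 was higher and 3 were lower, and none of 5 erythrocyte markers reached an unadjusted p under 0.05.

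Complement and microglial genes did not move as a group. Of 36 tested members of the complement, MHC and interferon list, 5 were higher and 1 lower at an unadjusted p under 0.05, with a median of 0.07, and C4b and C4a led it. The counts were 3 and 1 with the GC and length trend removed and 2 and 1 without mice 195 and 198. Tapbp, which loads peptides on MHC class I, was the lower one (-0.55 ± 0.18). Of 23 microglia markers, 2 were higher and 3 lower. P2ry13, a microglial ADP receptor, had 4.13, 6.46, 5.49 and 7.1 CPM at 5 months and 9.2, 8.64, 11.3 and 9.13 CPM at 18 months (0.71 ± 0.20, adjusted p = 0.167, edgeR). Csf1r, the receptor that microglia need to survive, had 310.0, 246, 256 and 251 CPM and then 142, 240.4, 258 and 172 CPM (-0.38 ± 0.17), with overlap. Leaving out mice 195 and 198, 5 microglia markers were higher and none lower, and with the GC and length trend removed 1 was higher and 3 lower, so the direction of these counts depended on the fit.

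Cytoskeleton genes of axons were more often higher than lower. Of 36 tested, 16 were higher and 2 lower at an unadjusted p under 0.05, 6 were wholly higher and 1 wholly lower, and the median log2 fold change was 0.19. Macf1, a giant linker of actin and microtubules, had 797, 1068, 1235 and 1023 CPM at 5 months and 2310, 1652, 1700 and 1458 CPM at 18 months (0.79 ± 0.18, adjusted p = 0.155, edgeR). Dync1h1, the motor chain of cytoplasmic dynein, had 1916, 2000, 3101 and 2305 CPM and then 3964, 3812, 4020 and 2890 CPM (0.66 ± 0.16, adjusted p = 0.16, edgeR). Sptan1, the alpha chain of brain spectrin, had 843, 1111, 1356 and 1082 CPM and then 2671, 1694, 1737 and 1419 CPM (0.78 ± 0.21, adjusted p = 0.162, edgeR). Macf1 and Sptan1 were separate between ages and Dync1h1 overlapped in mouse 198. Dst, a related linker, had 0.69 ± 0.18, Ank2, an ankyrin that ties membrane proteins to spectrin, had 0.51 ± 0.16, and the neurofilament chain Nefl had 0.39 ± 0.13. The microtubule stabilizer Map6 went the other way, with 492, 459, 348 and 442 CPM and then 318, 298, 253 and 234 CPM (-0.66 ± 0.17, adjusted p = 0.16, edgeR), as did Stmn3, which destabilizes microtubules (-0.47 ± 0.17). With the GC and length trend removed, 14 were higher and 1 lower and the median was 0.21. In the 6 libraries without mice 195 and 198, 14 were higher and 4 lower and the median was 0.15.

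Presynaptic genes leaned in the same direction with a smaller shift. Of 58 tested, 10 were higher and 4 lower at an unadjusted p under 0.05, and the median was 0.10 (11 and 3 with the GC and length trend removed, 7 and 2 without mice 195 and 198). Erc2, a scaffold of the active zone, had 37.2, 50.0, 53.6 and 48.5 CPM at 5 months and 84.2, 60.9, 65.3 and 61.2 CPM at 18 months (0.52 ± 0.15, adjusted p = 0.17, edgeR). Synj1, a phosphatase of vesicle recycling, had 124, 178, 182 and 172 CPM and then 268, 231, 229 and 205 CPM (0.51 ± 0.14, adjusted p = 0.17, edgeR). Both were separate between ages. The 2 members with the most reads per kilobase of exon were lower: Syp, a membrane protein of synaptic vesicles (706 CPM per kb over the 8 libraries), had 5056, 3863, 3906 and 4083 CPM and then 3084, 2945, 2647 and 3836 CPM (-0.43 ± 0.16), and Slc17a7 (458 CPM per kb) had a log2 fold change of -0.35 ± 0.12. Snap25, of the fusion complex, had 712, 902, 684 and 857 CPM and then 1209, 879, 818 and 1207 CPM (0.38 ± 0.18), with overlap.

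Of 68 postsynaptic genes tested, 6 were higher and 7 lower at an unadjusted p under 0.05, with a median of 0.03. This split depended on the fit, with 5 higher and 3 lower when the GC and length trend was removed and 8 higher and 2 lower without mice 195 and 198. Grin1, the obligatory NMDA receptor subunit, had 2589, 2082, 2187 and 2239 CPM at 5 months and 1525, 1867, 1859 and 1838 CPM at 18 months (-0.36 ± 0.11, adjusted p = 0.187, edgeR; 0.0303, DESeq2). Gabbr1, a subunit of the GABA-B receptor, had 1833, 1435, 1574 and 1516 CPM and then 1098, 1359, 1373 and 1199 CPM (-0.34 ± 0.12, adjusted p = 0.216, edgeR). Both receptor genes were separate between ages. The scaffold regulator Sipa1l1, which remodels spines, had 420.1, 683, 736 and 620.1 CPM and then 1098, 933, 945 and 635 CPM (0.55 ± 0.18), which overlapped. Of 30 mRNAs known to be localized in dendrites, 4 were higher and 3 lower. Camk2a, the most abundant of them per length (846 CPM per kb), had 5299, 6514, 6401 and 5618 CPM and then 7905, 6854, 6957 and 4998 CPM (0.16 ± 0.14), and Itpr1, a calcium channel of the endoplasmic reticulum, had 0.46 ± 0.16. Among 24 neuron markers 7 were higher and 2 lower, and among 29 interneuron genes 3 were higher, Gad2 among them, and 1 lower, the neuropeptide gene Cck (-0.60 ± 0.23).

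For genes of the translation machinery, the counts of lower ribosomal protein genes and of higher translation factors depended on the fit. Of 77 cytosolic ribosomal protein genes, 6 were lower and none higher at an unadjusted p under 0.05, and the median was -0.06. Among all genes tested, 8.23% were lower and 9.14% higher at that level. Fau, which encodes a ribosomal protein fused to a ubiquitin-like one, had 203, 139.7, 156 and 117 CPM at 5 months and 114, 102, 115 and 107 CPM at 18 months (-0.50 ± 0.15, adjusted p = 0.184, edgeR), and Rpl18, of the large subunit, had -0.45 ± 0.15. With the GC and length trend removed, 1 was higher and 2 lower, and the median was -0.0016, whereas without mice 195 and 198 none was higher and 8 were lower, and the median was -0.11. Of 76 translation factors and regulators, 12 were higher and 1 lower, with a median of 0.12. Cpeb4, which regulates poly(A) tails of dormant mRNAs, had 64.8, 67.4, 72.9 and 74.5 CPM and then 115, 79.5, 88.3 and 109 CPM (0.48 ± 0.14, adjusted p = 0.168, edgeR), Pum2, a translational repressor, had 0.49 ± 0.17, and Eif4e, the cap-binding factor, had 0.51 ± 0.17. The lower one was Eif4ebp2, the brain inhibitor of Eif4e, with 28, 26, 28.1 and 26.7 CPM and then 17.8, 24.6, 23.3 and 21.4 CPM (-0.31 ± 0.12). With the trend removed 10 of the 76 were higher and 2 lower, and without mice 195 and 198 none was higher, 2 were lower and the median was 0.03.

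Energy and protein quality genes differed in direction between lists, and some of these directions depended on the fit. Of 77 nuclear genes of the respiratory chain, 3 were higher and 8 lower at an unadjusted p under 0.05 (median -0.08), with 2 and 7 when the trend was removed and 3 and 7 without mice 195 and 198. Atp5e, a subunit of ATP synthase, had 92, 60.5, 62.3 and 55.7 CPM at 5 months and 38.1, 47.8, 42.8 and 36 CPM at 18 months (-0.71 ± 0.19, adjusted p = 0.167, edgeR). None of the 13 mRNAs of the mitochondrial genome reached an unadjusted p under 0.05, and their median was 0.18 (0.63 without mice 195 and 198). Their SE was large, between 0.28 and 0.51, and their share of all reads was 0.611 to 2.03% at 5 months and 0.867 to 2.09% at 18 months. Of 39 proteasome subunit genes, 5 were higher and 1 lower (3 and 0 with the trend removed, 1 and 1 without mice 195 and 198), and of 55 chaperone genes, 1 was higher and 1 lower. Fold changes were above 0 for 24 of the 39 proteasome genes (median 0.18) and for 42 of the 55 chaperone genes (median 0.11). The medians were 0.15 and 0.08 with the trend removed, and -0.03 and -0.05 without mice 195 and 198.

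The list of nuclear RNAs had a median of 0.13, and of 0.08 with the GC and length trend removed. Its counts in each direction varied with the fit. Malat1, a nuclear-retained long noncoding RNA, had 701, 702, 911 and 1535 CPM at 5 months and 2226, 1589, 1554 and 2619 CPM at 18 months. The groups were separate, the highest of 5 months (1535) being just under the lowest of 18 months (1554), and the log2 fold change was 1.05 ± 0.26 (adjusted p = 0.16, edgeR; 0.0167, DESeq2). In SC_TH Malat1 fell by 0.79 (adjusted p = 0.0111, edgeR). Neat1, another nuclear RNA, had 2.5, 2.94, 2.2 and 3.55 CPM and then 4.6, 3.35, 6.43 and 6.76 CPM in SC_SYN (0.87 ± 0.30), and the list of 21 nuclear RNAs had 2 higher and 2 lower (2 and 1 with the GC and length trend removed, 4 and 0 with a median of 0.21 without mice 195 and 198). Gm26917, a noncoding gene model, was lower (-0.93 ± 0.29), with 11966 CPM in mouse 191 and 2771 to 6774 CPM in the other 7. Of 54 splicing factor genes, 10 were higher and none lower, with a median of 0.16. Son, a scaffold of nuclear speckles, had 114, 128, 143 and 138 CPM and then 204, 191, 203 and 148 CPM (0.51 ± 0.13, adjusted p = 0.16, edgeR), Nova1, a neuronal splicing regulator, had 0.59 ± 0.16, and Rbfox1, of the same kind, had 0.40 ± 0.13. Their median exonic GC content was 44.0%, against 49.9% for all genes tested, and with the trend removed 9 were higher and 2 lower and the median was 0.03. In the fit without mice 195 and 198, 7 were higher and 1 lower, with a median of 0.02. Of 32 replication-dependent histone genes, whose mRNAs lack a poly(A) tail, 4 were higher and 5 lower (median -0.42), with 6 and 4 (-0.19) when the trend was removed and 2 and 8 (-0.45) without mice 195 and 198.

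A list of 11 genes was taken as well, which the study looks at by splicing, as ribosomal proteins or, for Ldhb, as normalizer of its quantitative PCR. The list does not hold all genes that the study names, and none of the 11 reached an unadjusted p under 0.05 in this comparison. Rps6, a ribosomal protein that is phosphorylated on activity, had 120.0, 146, 121 and 129 CPM at 5 months and 152, 104, 110.2 and 164 CPM at 18 months (0.04 ± 0.17). Ldhb, a lactate dehydrogenase chain, had 0.10 ± 0.20, and the ribosomal protein genes Rpl10a, Rpl15, Rpl7, Rps13 and Rpl26 had between -0.43 and -0.03. Birc2, an inhibitor of apoptosis, had 0.31 ± 0.18, Bcas1, of early myelinating oligodendrocytes, had 0.33 ± 0.19, Nfasc, an adhesion protein of the axon initial segment, had -0.25 ± 0.13, and Eif2b3, a subunit of an initiation factor, had 0.01 ± 0.20.

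**Figure D3:**
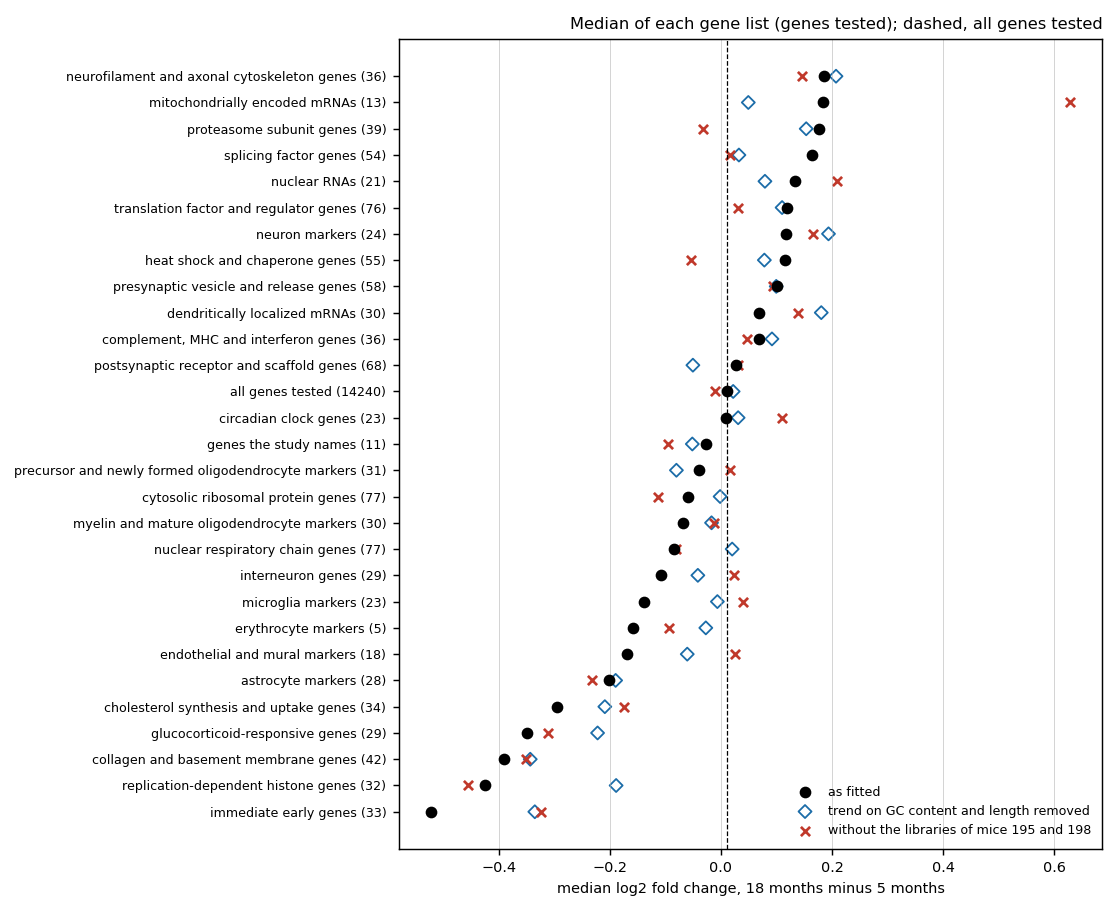
Median log2 fold change of 18 against 5 months for each gene list (y axis, with the number of genes tested), as fitted (black), with the trend on GC content and length removed (blue diamonds) and without the libraries of mice 195 and 198 (red crosses); the dashed line is the median of all genes tested. Immediate early (-0.52), collagen (-0.39) and glucocorticoid-responsive genes (-0.35) stay at -0.22 or below in all 3, and the cytoskeleton list (0.19) stays at 0.15 or above.

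Base composition and gene length moved with age in these libraries. The 2837 genes of lowest exonic GC content (27.5 to 44.1%) had a median log2 fold change of 0.22, with 372 genes wholly higher at 18 months and 22 wholly lower. The 2837 of highest GC content (55.6 to 75.5%) had a median of -0.20, with 18 wholly higher and 393 wholly lower. The slope came from some libraries of both ages: genes of lowest GC content deviated by -0.31 in mouse 191 and -0.10 in mouse 193, both of 5 months, and by 0.21 in mouse 195 and 0.28 in mouse 198. In mice 192, 194, 196 and 197 the same deviation was between -0.03 and 0.01. Of the 2841 longest genes, 429 were wholly higher and 92 wholly lower. A GC or length trend that differs between libraries cannot be told apart from age where it divides them the same way, and values with the trend removed stand beside most groups above.

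**Figure D4:**
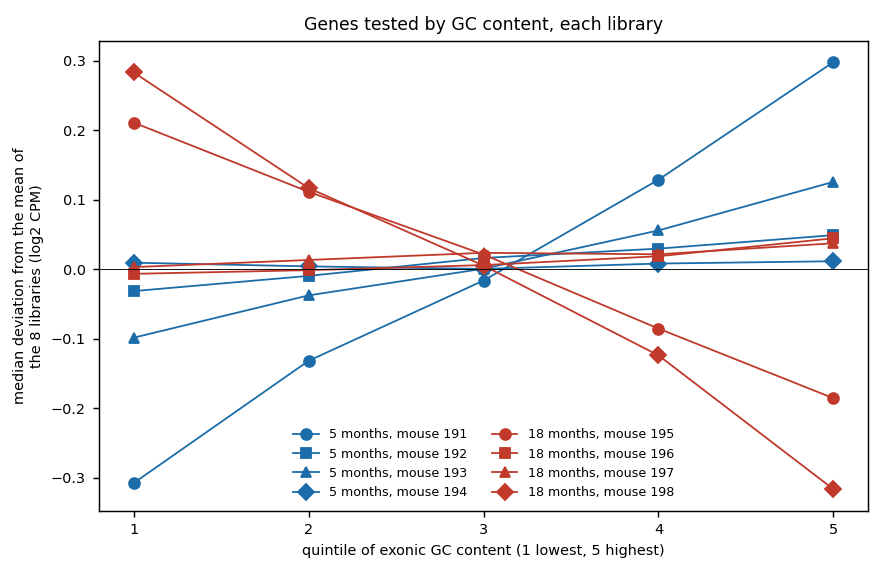
Median deviation from the mean of the 8 libraries in log2 CPM (y axis) for 5 equal groups of genes ordered by exonic GC content (x axis), with a line for each library of 5 months (blue) and 18 months (red). The lines of mice 195 and 198 run from above 0 at low GC to below 0 at high GC, those of mice 191 and 193 run the other way, and the remaining 4 stay between -0.03 and 0.05.

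Mice of the same numbers gave homogenate pellets and input RNA, so the age difference of each gene can be set beside its value there. Tsc22d3 fell in all 4 library types, by 0.50 in SC_TH (adjusted p = 0.00938), 0.73 in input_SYN (adjusted p = 0.011) and 0.59 in input_TH (adjusted p = 0.00028), all by edgeR. AC149090.1 rose in all 4 as well, by 1.44 (adjusted p = 0.00228), 1.34 (adjusted p = 0.0366) and 1.25 (adjusted p = 0.00423) in the same order, by edgeR. Arc fell in the other 3 types, by 1.60 in SC_TH (adjusted p = 0.0112, edgeR), 1.80 in input_SYN (adjusted p = 0.011) and 1.14 in input_TH (adjusted p = 0.0091). C4b rose in them, by 0.93 (adjusted p = 0.00179), 0.95 (adjusted p = 0.00101) and 0.78 (adjusted p = 0.0041), by edgeR. Arl4d fell in SC_TH (-0.87, adjusted p = 0.0172, edgeR) and in input_SYN (-1.18, adjusted p = 0.0412). Immediate early genes fell at an adjusted p under 0.05 for 12 of the 33 in SC_TH, where 1.79% of 16427 genes fell, and for 1 in input_SYN, where 0.108% of 12975 genes fell. Genes that rose at that level made up 0.377% in SC_TH, 0.0308% in input_SYN and 8.18% of 18078 genes in input_TH, where 7.35% fell.

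For other genes the values in SC_TH lay near 0 or on its other side. The cytoskeleton list had a median of -0.04 in SC_TH, with none of the 36 called, against 0.19 in SC_SYN. Macf1 had -0.23 and Dync1h1 -0.14 in SC_TH, and Usp29, Iqgap2 and Lmo7 had 0.01, 0.10 and -0.07. In input_SYN the direction was that of SC_SYN, with 0.31, 0.32 and 0.38 for Usp29, Iqgap2 and Lmo7. None of these values had an adjusted p under 0.05 (edgeR). In input_TH they were -0.23, -0.05 and 0.04. The cytoskeleton list had a median of 0.08 in input_SYN and of 0.12 in input_TH. The difference between the age effects in SC_SYN and SC_TH was tested as an interaction over 24 libraries. None of 16630 genes (0%) passed an adjusted p of 0.05 in edgeR, 2855 (17.2%) had an unadjusted p under 0.05, and DESeq2 gave 272. The smallest p was that of Malat1, whose age effect was higher in SC_SYN by 1.83 ± 0.32 (SE; adjusted p = 0.113, edgeR). It was followed among named genes by Bptf (0.77 ± 0.15, adjusted p = 0.113, edgeR), Macf1 (1.01 ± 0.20, adjusted p = 0.113) and Dync1h1 (0.79 ± 0.17, adjusted p = 0.113). For Tsc22d3 the difference was -0.49 ± 0.14 (adjusted p = 0.13, edgeR) and for Arc it was -0.07 ± 0.52 (SE). The SE for Arc is too wide to resolve a difference between age effects of its own size. Against input_SYN, none of 14301 genes (0%) passed by edgeR and 393 (2.75%) had an unadjusted p under 0.05, and DESeq2 gave 0. The trend on GC content and length was not removed in these interactions, and its part in them was not tested.

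**Figure D5:**
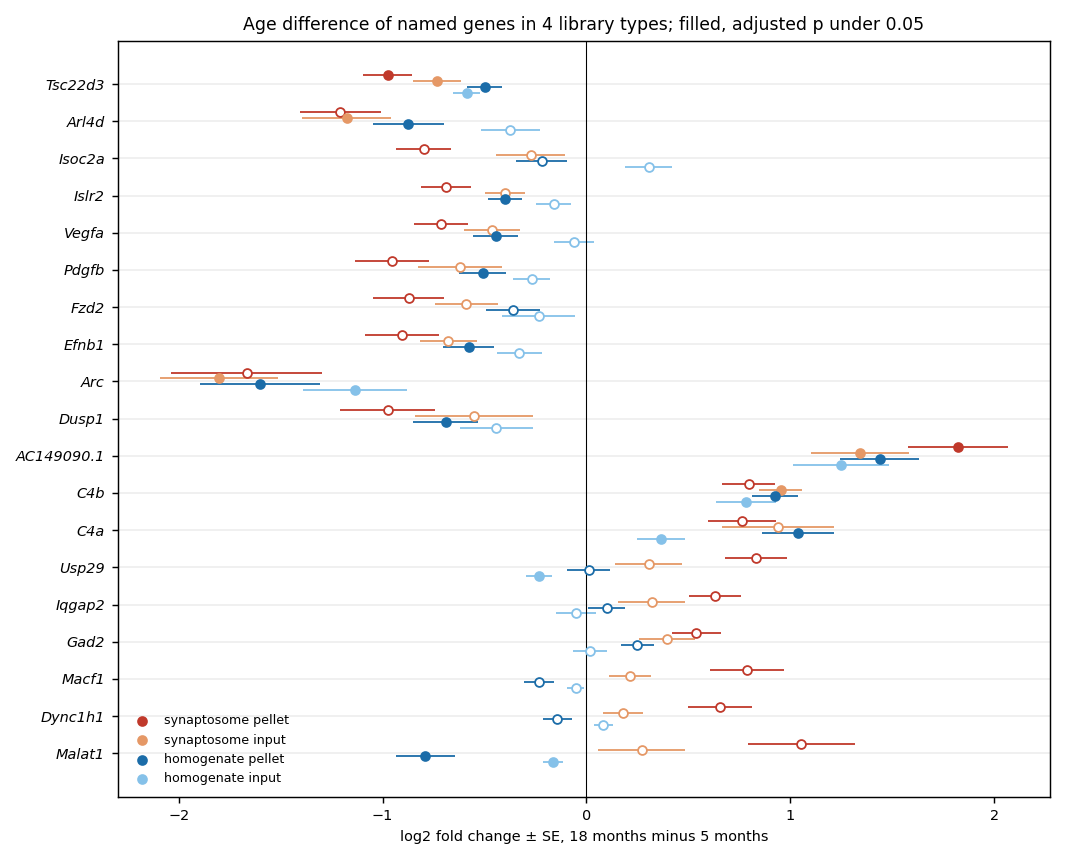
Log2 fold change of 18 against 5 months with its SE (x axis) for 19 genes (y axis) in the synaptosome pellet (red), synaptosome input (orange), homogenate pellet (dark blue) and homogenate input (light blue), with filled points for an adjusted p under 0.05. Tsc22d3 and AC149090.1 are filled in all 4, while Macf1, Dync1h1 and Malat1 lie to the right of 0 in the synaptosome pellet and to the left in the homogenate pellet.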

How the data were processed

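Ribosome pellets of cortical synaptosomes from 4 mice of 18 months and 4 of 5 months were compared; the libraries were rRNA-depleted. The authors deposited whole-number read counts per gene (TopHat2 2.1, featureCounts without strand, GRCm38; bcl2fastq 2.20.0.422, per the labels), and whether the UMI adaptors were used to remove duplicates, and which run held which library, is not given in the sources used here. Columns of no mapped sample numbered 0. Depth per library is given with the results and intervals cover the spread between these mice.

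Counts were filtered with filterByExpr, scaled by TMM and fitted with the quasi-likelihood test of edgeR 4.0.16 (R 4.3.3) over the 12 SC_SYN libraries of 3 ages, with Benjamini-Hochberg adjustment. Differences of the age effect between library types were interactions over 24 libraries. DESeq2 1.42.0 left 3038 genes without an adjusted p. Fits were tested on simulated data. GC content and length came from the GENCODE vM21 annotation of GRCm38 (48144 genes), promoters from RefSeq. Alternatives were limma 3.58.1 (voom), other scaling, filters, libraries, thinning and a loess trend (span 0.5) on GC and length removed.

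Samples were grouped by their labels. The gene lists and members were chosen with earlier results of these data known. Named genes were those with an adjusted p under 0.05, the 12 with the smallest p in each direction (groups apart, no clone-type or pseudogene symbols, and 50 counts or more as the mean of the higher group), up to 5 members of each list by p and 2 by level per kilobase, Arc and 11 genes that the study examines singly. The immediate early genes Fos, Junb, Nr4a1, Egr2, Dusp5, Egr1, Npas4, Bdnf, Btg2 and Plk2, and Sgk1, Nfkbia, Nr3c1, Fkbp5, Lamc1, Ank2, Snap25, Eif4ebp2 and Rbfox1, fall outside this rule and were named after their values were seen. Equal numbers in the sample titles were taken to mark the same animal in all library types. The deviations of same-numbered libraries from their group means correlated with r between -0.61 and 0.62 (SC_SYN against input_SYN). Against SC_TH, r was between -0.36 and 0.50.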

Additional observations from a re-analysis of the deposited data

Results flagged for a closer look

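Of 346 groups of 4 libraries examined, 21 (6.07%) held a library whose gap to its nearest neighbour took up most of the range of the group, a share that chance gives in about 1 of 20 groups. In mouse 191, of 5 months, Ndufc2 had 140.3 CPM, Tapbp 94.3, Csf1r 310.0, Cnp 281 and Col1a2 101, each above the other 3 libraries of its age. In the same mouse Synj1 had 124 CPM, Rab3c 73.3 and Psma6 16.8, each below the other 3, and the summed level of the cholesterol genes was 14826 CPM, above them. In mouse 193 Dnajb5 had 66.3 CPM, Vwf 3.39 and the summed proteasome genes 1279, all below the rest of their age, and in mouse 192 Rnf213 was low at 14.3 CPM.

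At 18 months, mouse 195 was low for Grin1 (1525 CPM) and high for Itpr1 (2490 CPM) and Pum2 (245 CPM). Kdm6a was highest in mouse 198 at 12.97 CPM, and Nefm in mouse 196 at 118 CPM. Summed levels stood above the other libraries in mouse 198 for astrocyte markers (40804 CPM) and erythrocyte markers (67.4 CPM), and in mouse 197 for myelin markers (5153 CPM). Of the 21 values, 9 belong to mouse 191, which also had the steepest trend on GC content at 5 months. Its part in the results was not tested beyond leaving the library out.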

How the results depend on the processing

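The count of 2 genes at an adjusted p under 0.05 became 322 in DESeq2, 339 in limma voom with quality weights, 60 with no filter on low counts, 1 with only the 8 libraries, 1457 with all 48 libraries in 1 fit and 1 without mice 195 and 198, an alternative chosen after seeing the data, as was thinning to the smallest library. Leaving out each mouse gave 0 (mouse 197) to 2, and 1 without mouse 196. The 2474 genes at an unadjusted p under 0.05 became 4286 with all 48 libraries, and 1258 (mouse 191) to 2675 (mouse 197) with a mouse left out, 1521 without mouse 195. Library size in place of TMM gave 1642 higher and 895 lower. The causes were not tested.

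Tsc22d3 passed under 19 of 21 alternatives (log2 fold change -1.03 to -0.87), AC149090.1 under 15 (1.67 to 2.15), C4b under 8 (0.73 to 0.94) and Arc under 4 (-2.01 to -1.19).

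For the difference between SC_SYN and SC_TH, DESeq2 gave 272 genes, library size 7, no filter 23, and a left-out mouse 0 to 1 (mouse 194). Against input_SYN, no filter gave 1 and a left-out mouse 0. With the mouse as a replicate block both counts stayed at 0, with 3105 and 458 genes at an unadjusted p under 0.05, and no call changed. The age comparison itself cannot be paired, as each mouse has a single age. With a mouse left out, input_SYN gave 7 (mouse 191; 8 without 192, 10 without 195) to 19 genes (mouse 197), SC_TH 84 (mouse 193; 87 without 197, 112 without 198, 145 without 195, 187 without 192) to 774 (mouse 191), and input_TH 1404 (mouse 196; 1438 without 198, 1655 without 194, 1715 without 192, 1800 without 193) to 3389 (mouse 195).

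The log2 fold changes of 8 named genes reversed, of which 6 had no unadjusted p under 0.05 as reported and 2, Rpl8 (-0.24) and Rpph1 (-0.63), had one. The reversed values were Ldhb -0.18, Rps6 -0.24, Rpl7 0.011 and Rpl26 0.17 in voom, Rpl7 0.012 with library size, Eif2b3 -0.0056 with no filter, Rps6 -0.0050 with all 48 libraries, Rpl8 0.024, Rpph1 0.0039, Eif2b3 -0.052 and Rpl26 0.057 with the GC and length trend removed, Eif2b3 -0.043 when thinned, and Ldhb -0.28, Rps6 -0.28, Rpl7 0.092 and Rpl26 0.36 without mice 195 and 198. With a mouse left out they ranged from -0.11 to 0.22 (Ldhb), -0.091 to 0.13 (Rps6), -0.12 to 0.087 (Eif2b3), -0.13 to 0.0017 (Rpl15), -0.11 to 0.080 (Rpl7) and -0.47 to 0.097 (Rpl26).

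The median SE was 0.19 on the log2 scale, 6 genes had an adjusted p under 0.1 and 646 under 0.2 (edgeR), and most genes named above are among those that missed 0.05. The libraries of mice 195 and 198 are the shallowest.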
